A study of Homo sapiens with 6 samples.

Results

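The genes described here are 30 established targets of the transcription factor p53, measured by RNA-seq in MDA-MB-453 cells after siRNA against *DUSP6* or scrambled siRNA. They were chosen by name, as the rows whose symbol equals 1 of 30 listed targets, and all 30 were found among the 22807 genes of the deposited table. MDA-MB-453 is an established HER2+ breast cancer cell line, grown here in RPMI with serum and antibiotics. *DUSP6* codes for a dual-specificity phosphatase that dephosphorylates ERK. The 3 control libraries carry the genotype label WT and the 3 others the label DUSP6 KD, both within the same line and both after transient transfection. The siRNAs differed between the libraries of a group. Which siRNA went into which library, and the time from transfection to harvest, are not given in the sources used here. The libraries of a group were therefore treated as replicates, and p-values measure the spread between these libraries, which may in part be technical or siRNA-specific.

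p53 is held at low levels in unstressed cells by MDM2, a ubiquitin ligase that marks it for degradation, and by the related MDM4. After DNA damage or other stress p53 is stabilized and activates genes that halt the cell cycle, repair DNA, adjust metabolism or promote cell death. MDM2, PPM1D and CCNG1 are themselves p53 targets and feed back on it. Many of these genes also respond to other transcription factors.

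The p53 protein binds a pair of half-sites of 10 bases. The region from 2500 bases before to 2500 bases after the start of the canonical GENCODE transcript was searched on hg38 for 2 half-sites that match the p53 consensus without a mismatch and are at most 3 bases apart. The consensus reads the same on both strands. Of the 28 members searched, 4 held such a match, or 14.3%, against 38 of 19306 protein-coding genes, or 0.197%. None of 88 other listed p53 targets held one (0 of 88). The search allowed no mismatch and covered only this window, so a gene without a match may still have a p53 site. *RRM2B* and *TP53INP1* were not searched. The members are known p53 targets, so this share is a description and not independent of how they were chosen. The 4 matches are shown because they are the p53-type sequences beside these genes, on the strand of the gene, with the core of each half-site in capitals.

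DDB2: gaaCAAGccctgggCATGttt
PLK2: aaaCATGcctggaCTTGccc
TIGAR: agaCATGtccacagaCTTGtct
ZMAT3: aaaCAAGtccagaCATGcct

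The *DDB2* match lies at chr11:47214979-47214999 (hg38, plus strand), in the untranslated part of an exon, 5 bases after the transcript start. The *PLK2* match lies upstream of the gene, at chr5:58462274-58462293 (minus strand) and at position -2207 from the start. The *TIGAR* match lies in an intron at chr12:4321615-4321636 (plus strand), 402 bases after the start, and the *ZMAT3* match in an intron at chr3:179070188-179070207 (minus strand), 1602 bases after it. Of these 4 genes, *DDB2* was lower after *DUSP6* siRNA while *PLK2*, *TIGAR* and *ZMAT3* were not called, *TIGAR* at the threshold. A match in letters does not show that p53 is bound there.

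The authors counted reads on RefSeq genes and deposited normalized values, each a multiple of what 1 read was worth in that library. The recovered depth was 45546981 to 85729785 reads per library, and 1 read was worth a value of 0.0121 to 0.0202. *DUSP6* itself had a value of 110 to 209 with scrambled siRNA and 24.5 to 39.4 with *DUSP6* siRNA. The luminal and HER2+ markers were expressed, apart from *ESR1* at 0.110 or less, and moved with the groups. Of the 6 tested, *ERBB2*, *FOXA1*, *GATA3*, *KRT8* and *KRT18* were lower and *EPCAM* was not called, with a median log2 fold change of -0.61. *ERBB2*, which codes for HER2, had values of 882 to 1068 with scrambled siRNA and 457 to 520 with *DUSP6* siRNA (log2 fold change -0.99, limma adjusted p = 1.59e-04). The summed value of the 7 listed markers was 3037 to 4077 and 2279 to 2446 in the respective groups, and their part in the values of the p53 targets was not tested. Of 8 markers of other cell types in the table, *COL1A1* was the main one expressed, at 80.7 to 105 and 162 to 192 in the respective groups, and *PTPRC* was at most 0.0809. These are bulk libraries, in which fewer cells with a transcript and less of it per cell cannot be told apart. The 10 interferon-stimulated genes listed for comparison summed to 17.6 to 45.3 with scrambled siRNA and to 2153 to 2947 with *DUSP6* siRNA. All 10 were higher, and their part in the values of the p53 targets was not tested.

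The p53 targets went in both directions. Of the 27 members with a mean value of at least 1, 4 were higher (*TP53I3*, *ANKRA2*, *RRM2B* and *XPC*), 6 were lower (*NINJ1*, *DDB2*, *PLK3*, *PPM1D*, *MDM2* and *CCNG1*) and 17 were not called. Calls were made with limma on log2(value + 1) at a Benjamini-Hochberg adjusted p under 0.05 over 12862 genes. In the same test 19.7% of all genes were higher and 24.7% lower, against 14.8% and 22.2% of the members. The median log2 fold change (log2 ratio, on the log2(value + 1) scale) of the members was -0.06, beside -0.01 for all genes tested. It was 0.0037 under quantile normalization, with 6 members higher and 5 lower. The members' log2 ratios ranged from -0.81 to 0.79. Of the 27 members tested, the groups did not overlap for 5 that were higher and 10 that were lower. Of all 12862 genes tested, these were 3433 and 4003, or 26.7% and 31.1%. Shares near those of all genes are no result about the members as a group.

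**Figure D1:**
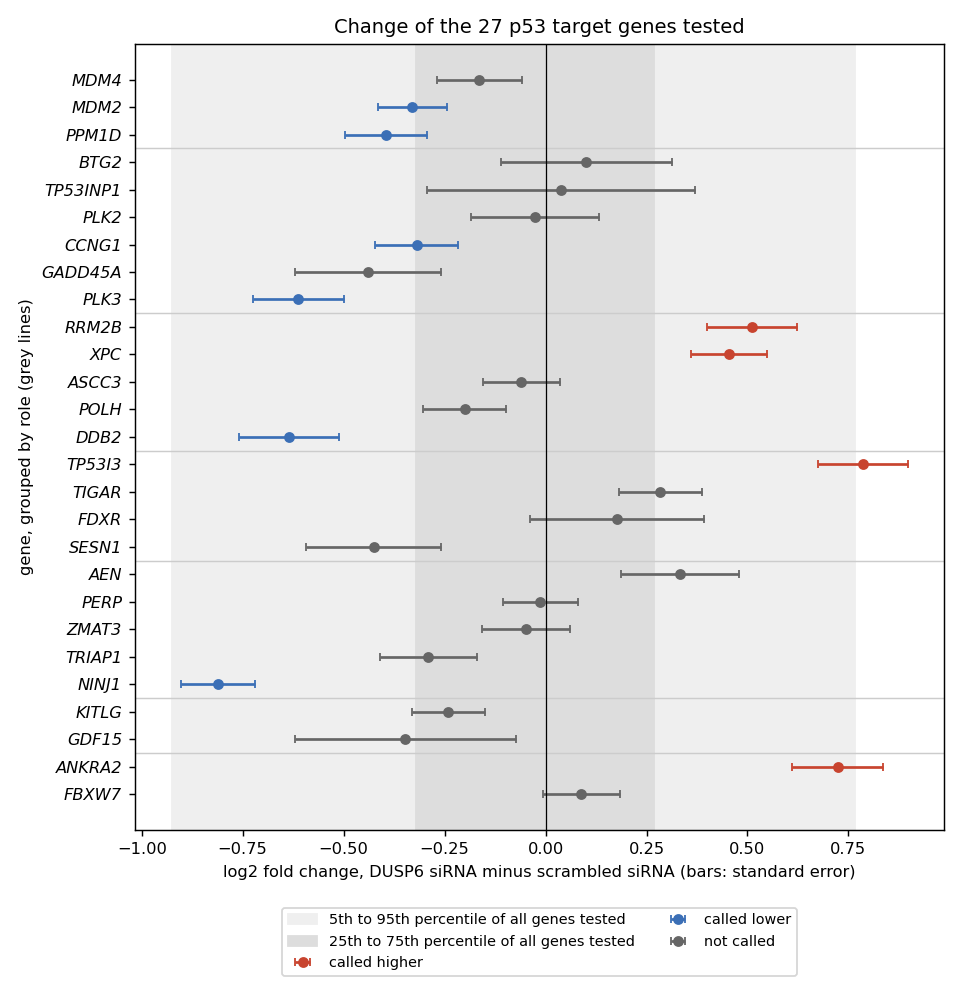
Each point is the log2 ratio of 1 of 27 p53 target genes (horizontal axis, *DUSP6* siRNA minus scrambled siRNA, 3 libraries each) with its standard error, colored by the limma call at an adjusted p under 0.05. The grey bands are the ranges from percentile 25 to 75 and from 5 to 95 of all 12862 genes tested; the 4 genes called higher and 6 called lower lie on both sides of 0.

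The transcripts differed widely in abundance. Per kb of canonical transcript, the mean value with scrambled siRNA ran from 1.77 for *SESN1* to 177 for *PLK2* among the members tested, with a median of 13.3. *CCNG1* (44.1 per kb), *NINJ1* (33.3 per kb) and *GDF15* (28.3 per kb) followed *PLK2*. At the other end, 3 members fell below the minimum. *EDA2R*, a death receptor of the TNF receptor family, had 0 to 4 reads per library, and *PHLDA3*, an inhibitor of AKT, had 0 to 2. At these depths 3 reads correspond to a value of 0.0362 to 0.0607, so no difference of either gene was detectable.

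**Figure D2:**
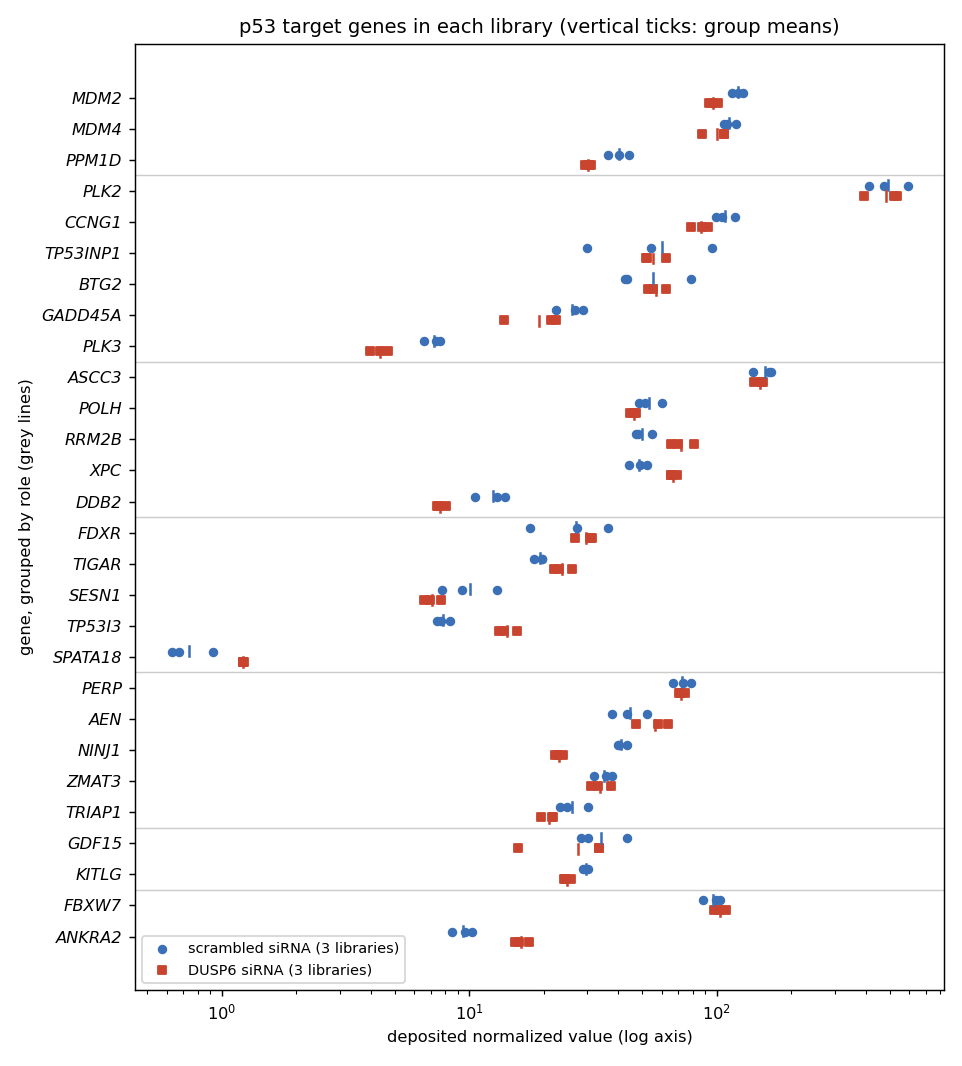
The deposited normalized value (log axis) of each p53 target gene with a mean above 0.5 is shown for the 3 scrambled siRNA libraries (blue circles) and the 3 *DUSP6* siRNA libraries (red squares), with the group means as vertical ticks. *NINJ1*, *DDB2*, *PLK3*, *TP53I3* and *ANKRA2* are separated by group, while *TP53INP1* and *FDXR* are spread most widely among the scrambled siRNA libraries.

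Among the genes that control p53, *MDM2* and *PPM1D* were lower. Where values of 3 libraries are listed, they stand in the order of replicates 1, 2 and 3. *MDM2* (Entrez gene 4193, chr12:68808177-68845544 on GRCh38) had values of 128, 122 and 115 with scrambled siRNA and 95.6, 92.7 and 102 with *DUSP6* siRNA. All 3 *DUSP6* siRNA libraries lay below the control libraries. It fell from a mean of 122 ± 6.41 (SD, n = 3) to one of 96.6 ± 4.56 (SD, n = 3), by a log2 ratio of -0.33 (SE 0.09, limma adjusted p = 0.0134). *PPM1D* codes for WIP1, a phosphatase that dephosphorylates p53 and the kinases upstream of it. Its values were 44.03, 40.1 and 36.4 with scrambled siRNA and 30.5, 31.0 and 29.2 with *DUSP6* siRNA. The groups did not overlap, and the log2 ratio was -0.40 (SE 0.10, limma adjusted p = 0.0120). *MDM4*, which binds p53 and blocks its activation domain, had values of 107 to 120 and 87.5 to 107, with a log2 ratio of -0.16 (limma adjusted p = 0.229). The calls of *MDM2* and *PPM1D* were close to the threshold. That of *MDM2* was lost without *DUSP6* siRNA replicate 1 (adjusted p = 0.0594), without replicate 2 (0.0593) and under quantile normalization (0.0692). That of *PPM1D* was lost without *DUSP6* siRNA replicate 3 (limma adjusted p = 0.0625).

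Of the 6 members linked to growth arrest and checkpoints, 2 were lower and 4 were not called. *PLK3*, a polo-like kinase of the stress response, had values of 7.32, 6.57 and 7.64 with scrambled siRNA and 4.71, 3.96 and 4.37 with *DUSP6* siRNA. Every *DUSP6* siRNA library was below every control library, and the log2 ratio was -0.61 (SE 0.11, limma adjusted p = 0.00256). *CCNG1* codes for cyclin G1, which brings the phosphatase PP2A to MDM2. It had values of 105, 99.1 and 119 with scrambled siRNA and 78.9, 92.0 and 87.3 with *DUSP6* siRNA. The groups did not overlap, and the log2 ratio was -0.32 (SE 0.10, limma adjusted p = 0.0309). This call was the least stable of the 10. It was lost under quantile normalization (adjusted p = 0.118) and in 5 of the 6 fits that left out 1 library, with adjusted p from 0.0502 to 0.133. *PLK3* kept its call in every fit it entered.

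The other 4 genes of this group differed more between libraries of 1 group than between the groups. *PLK2*, the most abundant member, had values of 414 to 591 with scrambled siRNA and 393 to 537 with *DUSP6* siRNA. Its log2 ratio was -0.03 (95% interval -0.39 to 0.33), and 0.22 under quantile normalization. *GADD45A*, a stress sensor that binds PCNA, had values of 22.3 to 28.8 in the control libraries. In the *DUSP6* siRNA libraries it had values of 22.4, 13.8 and 21.4, so that replicate 2 alone was well below the controls. Its log2 ratio was -0.44 (limma adjusted p = 0.0755), and -0.23 without that library. It was called lower without scrambled siRNA replicate 3 (limma adjusted p = 0.0450). *BTG2*, an antiproliferative factor that promotes mRNA deadenylation, had values of 43.5, 78.9 and 42.7 with scrambled siRNA and 55.0, 62.5 and 52.8 with *DUSP6* siRNA. Scrambled siRNA replicate 2 stood above all the others. With it, the log2 ratio was 0.10 (95% interval -0.38 to 0.58, limma adjusted p = 0.723), and without it *BTG2* was called higher, at 0.39 (limma adjusted p = 0.0191). *TP53INP1*, which promotes p53 phosphorylation and autophagy, varied widely among the control libraries. Its values were 29.9, 95.8 and 54.1 with scrambled siRNA and 51.5, 62.5 and 52.3 with *DUSP6* siRNA. The mean was lower with *DUSP6* siRNA while the fitted log2 ratio was 0.04 (95% interval -0.71 to 0.79), and its sign turned without scrambled siRNA replicate 1 (-0.38).

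The DNA repair members went in both directions. *XPC* and *DDB2* both act in the recognition of damage for nucleotide excision repair, and they moved apart. *XPC* had values of 48.9, 52.3 and 44.3 with scrambled siRNA and 65.5, 69.4 and 65.3 with *DUSP6* siRNA. It rose from a mean of 48.5 ± 4.01 (SD, n = 3) to one of 66.7 ± 2.30 (SD, n = 3), by a log2 ratio of 0.46 (SE 0.09, limma adjusted p = 0.00454). *DDB2*, which carries the consensus match at its start, had values of 14.0, 12.95 and 10.5 with scrambled siRNA and 7.46, 8.02 and 7.43 with *DUSP6* siRNA. It fell from a mean of 12.5 ± 1.76 (SD, n = 3) to one of 7.64 ± 0.33 (SD, n = 3), by a log2 ratio of -0.63 (SE 0.12, limma adjusted p = 0.00347). For neither gene did the groups overlap. *RRM2B* codes for the p53-inducible small subunit of ribonucleotide reductase, which supplies deoxynucleotides for repair and for mitochondrial DNA. It had values of 48.2, 47.1 and 54.9 with scrambled siRNA and 65.1, 81.3 and 69.5 with *DUSP6* siRNA. It was higher in all 3 *DUSP6* siRNA libraries, with a log2 ratio of 0.51 (SE 0.11, limma adjusted p = 0.00567). *POLH*, the polymerase that copies past UV lesions, had values of 48.5 to 60.3 and 44.6 to 47.3. Its groups did not overlap, but its log2 ratio of -0.20 was not called (limma adjusted p = 0.144) except without scrambled siRNA replicate 3 (0.0476). *ASCC3*, a helicase of alkylation repair and ribosome quality control, differed by -0.06 with a 95% interval of -0.28 to 0.15.

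The metabolic and mitochondrial members held the largest increase. *TP53I3* codes for a quinone oxidoreductase linked to reactive oxygen species. Its values were 7.71, 8.34 and 7.38 with scrambled siRNA and 13.8, 15.6 and 13.2 with *DUSP6* siRNA. It rose from a mean of 7.80 ± 0.49 (SD, n = 3) to one of 14.2 ± 1.28 (SD, n = 3), by a ratio of 1.82 and a log2 ratio of 0.79 (SE 0.11, limma adjusted p = 6.54e-04). *SPATA18*, which takes part in mitochondrial quality control, was too low for the test, at 0.627 to 0.920 with scrambled siRNA and 1.21 to 1.24 with *DUSP6* siRNA, from 45 to 101 reads per library. Its groups did not overlap, and with no minimum on the mean value it was called higher (limma adjusted p = 0.0163). The ratio of its means was 1.66, and its log2 ratio on the log2(value + 1) scale was 0.36. *TIGAR*, a fructose-2,6-bisphosphatase that turns flux from glycolysis to the pentose phosphate pathway, had values of 18.3 to 19.7 and 22.1 to 26.0. It also did not overlap, and it lay at the threshold. Its log2 ratio of 0.28 had a limma adjusted p of 0.0505, and 7 of 14 alternatives called it higher.

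*SESN1*, a sestrin that restrains mTORC1, had values of 7.75, 12.9 and 9.39 with scrambled siRNA and 6.94, 7.72 and 6.55 with *DUSP6* siRNA. The *DUSP6* siRNA libraries were all lower, the highest only just, and the log2 ratio of -0.43 was not called (limma adjusted p = 0.0658). It was called lower under quantile normalization (0.0405), with a replicate block (0.0341) and without scrambled siRNA replicate 1 (0.0207). *FDXR*, the mitochondrial ferredoxin reductase, had values of 17.7 to 36.2 with scrambled siRNA, a range that enclosed all 3 *DUSP6* siRNA libraries (26.8 to 31.2). Its log2 ratio was 0.18 (95% interval -0.31 to 0.67), and it turned to -0.09 without scrambled siRNA replicate 2.

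Among the members linked to cell death and survival, the largest decrease of all members was in *NINJ1*, whose protein ruptures the plasma membrane of dying cells. Its values were 43.4, 40.2 and 39.9 with scrambled siRNA and 24.0, 22.9 and 22.1 with *DUSP6* siRNA. It fell from a mean of 41.2 ± 1.93 (SD, n = 3) to one of 23.0 ± 0.92 (SD, n = 3), by a log2 ratio of -0.81 (SE 0.09, limma adjusted p = 2.08e-04), and the replicates of each group lay close together. The other 4 tested members of this group were not called. *AEN*, a nuclease active in apoptosis, had values of 37.6 to 52.1 and 47.1 to 63.6, and its log2 ratio of 0.33 (limma adjusted p = 0.0916) was called higher under quantile normalization (0.0432), with a replicate block (0.0319) and without scrambled siRNA replicate 3 (0.0237). *TRIAP1*, a mitochondrial lipid transfer protein that restrains apoptosis, had values of 23.3 to 30.1 and 19.6 to 21.9, with a log2 ratio of -0.29 (limma adjusted p = 0.0752, and 0.0462 without scrambled siRNA replicate 1). *PERP*, a desmosome protein, and *ZMAT3*, an RNA-binding splicing regulator, differed by -0.01 (95% interval -0.22 to 0.20) and -0.05 (95% interval -0.29 to 0.20).

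Of the secreted ligands, *GDF15*, a stress-induced cytokine of the TGF-beta superfamily, was set apart by 1 library. Its values were 28.3, 43.2 and 30.3 with scrambled siRNA and 33.3, 15.7 and 33.3 with *DUSP6* siRNA. Replicates 1 and 3 lay within the range of the controls and replicate 2 below it. The log2 ratio was -0.35 (95% interval -0.97 to 0.27, limma adjusted p = 0.328) and -0.0016 without *DUSP6* siRNA replicate 2. That library also had the lowest summed value of 14 targets of ATF4, the transcription factor of the integrated stress response, at 859.9 against 1061 and 1126 in the other *DUSP6* siRNA libraries and 971 to 1102 in the controls. The part of this in the *GDF15* value was not tested. *KITLG*, the ligand of the receptor KIT, had values of 28.9 to 30.1 and 24.1 to 25.8 without overlap. Its log2 ratio of -0.24 had a limma adjusted p of 0.0557, and it was called lower only with no minimum on the mean value (0.0496).

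Of the last pair, *ANKRA2*, an ankyrin repeat protein, had values of 9.60, 10.2 and 8.48 with scrambled siRNA and 15.3, 17.5 and 15.8 with *DUSP6* siRNA. It was higher in all 3 libraries, with a ratio of the means of 1.72 and a log2 ratio of 0.72 (SE 0.11, limma adjusted p = 0.00108). Its value is uncertain, since 8.08% of its exon bases are shared with *UTP15*. *FBXW7*, the substrate receptor of a ubiquitin ligase for cyclin E and MYC, differed by 0.09 (95% interval -0.13 to 0.30).

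**Figure D3:**
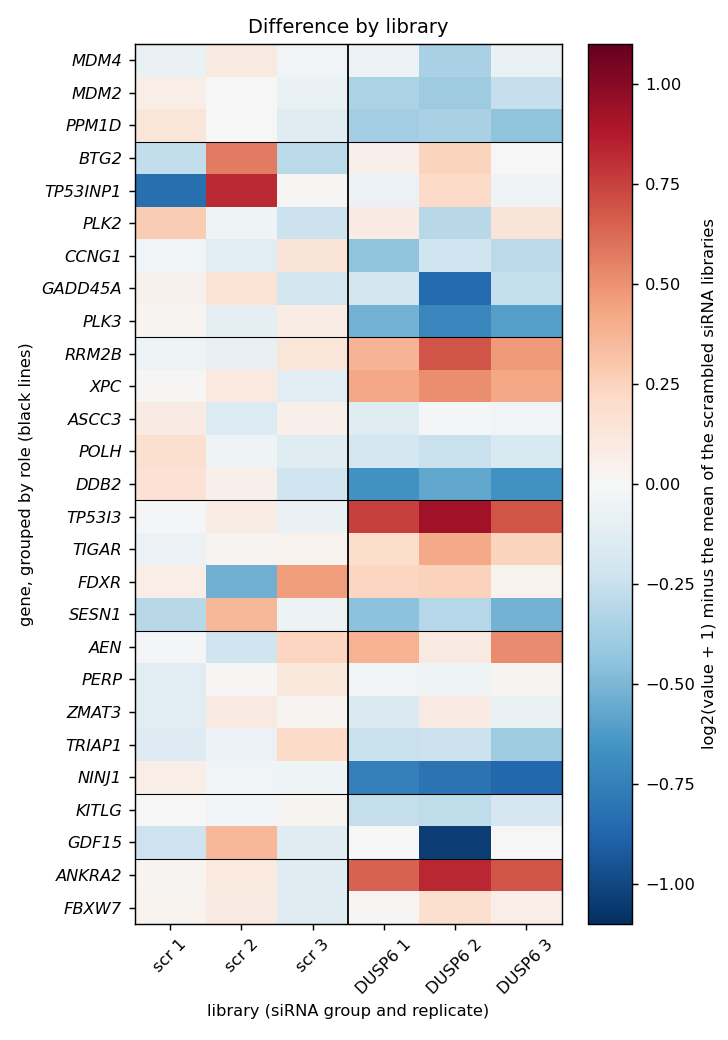
Each cell is the log2(value + 1) of a p53 target gene (rows, grouped by role) in 1 library (columns; scr, scrambled siRNA; DUSP6, *DUSP6* siRNA; numbers are replicates) minus the mean of the 3 scrambled siRNA libraries. *NINJ1*, *DDB2*, *PLK3*, *TP53I3* and *ANKRA2* have 1 color across the 3 *DUSP6* siRNA libraries, whereas *GDF15* and *GADD45A* are deep blue in replicate 2.

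Of 31 genes of p53 paralogs and upstream regulators, 4 were higher and 12 lower (12.9% and 38.7%, beside 19.7% and 24.7% of all genes tested), with a median log2 ratio of -0.22 beside -0.01. The paralogs, *TP63* and *TP73*, were both lower. These are mRNA levels, which do not report the amount or the activity of the p53 protein. *TP63* went from a mean of 10.1 ± 4.47 (SD, n = 3) to one of 1.76 ± 0.34 (SD, n = 3), a ratio of 0.174. Its log2 ratio on the log2(value + 1) scale was -1.95 (limma adjusted p = 3.39e-04). *TP73* went from a mean of 20.0 ± 2.37 (SD, n = 3) to one of 11.1 ± 0.91 (SD, n = 3), by a log2 ratio of -0.80, with 9.35% of its exons shared with *TP73-AS1*. Also lower were *RPL11*, a ribosomal protein that can bind and inhibit MDM2 (-0.85), *HIPK2*, a kinase that phosphorylates p53 (-0.61), and *CHEK1*, a checkpoint kinase (-0.56). The damage kinase *ATM* was higher (log2 ratio 0.32, limma adjusted p = 0.0142), a call lost without *DUSP6* siRNA replicate 1 (0.0591) and without replicate 3 (0.0798). The acetyltransferase *KAT5* (0.86), which shares 38.6% of its exons with *RNASEH2C* and is uncertain, the deacetylase *SIRT1* (0.56) and the corepressor *TRIM28* (0.41) were also higher. The call of *TRIM28* was lost in 5 of the 6 fits that left out 1 library and with no minimum on the mean value (adjusted p = 0.0792 to 0.119). *CHEK2* was not called (-0.10) and is uncertain, with 6.52% of its exon bases shared with *HSCB*.

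A further 93 p53 targets outside the 30 were listed by hand. Of these, 76 could be tested, and 17 were higher and 21 lower (22.4% and 27.6%, beside the same 19.7% and 24.7%), with a median log2 ratio of 0.04. *CDKN1A*, whose product p21 inhibits cyclin-dependent kinases, had values of 40.9, 56.7 and 58.9 with scrambled siRNA and 92.6, 81.8 and 104 with *DUSP6* siRNA. It was higher in all 3 libraries, with a ratio of 1.78 and a log2 ratio of 0.83 (SE 0.15, limma adjusted p = 0.00229). The genes of the apoptotic BH3-only proteins NOXA and PUMA were also higher. *PMAIP1* (NOXA) rose from a mean of 1.42 ± 0.15 (SD, n = 3) to one of 9.56 ± 2.61 (SD, n = 3), a ratio of 6.75. Its log2 ratio, on the log2(value + 1) scale that understates changes of low genes, was 2.10 (limma adjusted p = 4.70e-05). *BBC3* (PUMA) rose from a mean of 2.60 ± 0.54 (SD, n = 3) to one of 5.59 ± 0.99 (SD, n = 3), a ratio of 2.15. On the same scale its log2 ratio was 0.87 (limma adjusted p = 0.00227). The death receptor gene *FAS* was higher by 0.99 on this scale, from a mean of 1.55 to 4.01, a ratio of 2.59. *BAX*, the effector of mitochondrial permeabilization, had a log2 ratio of 0.28 that was not called (limma adjusted p = 0.101) except without scrambled siRNA replicate 3 (0.0124). The remaining large increases were in *ATF3* (1.37), a stress-induced transcription factor, *FUCA1* (1.28), a lysosomal fucosidase, and *SESN2* (1.14), a sestrin. The largest decreases were in *ABCA12* (-2.09), a lipid transporter, *FAM210B* (-1.75), *RHOC* (-1.69), a small GTPase, and *STEAP3* (-1.60), a metalloreductase whose value is uncertain because *STEAP3-AS1* overlaps its exons. Of this list, 2 genes, *SESN2* and *DDIT4*, also stand on the list of 14 ATF4 targets. That list is short and need not hold every ATF4 target.

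**Figure D4:**
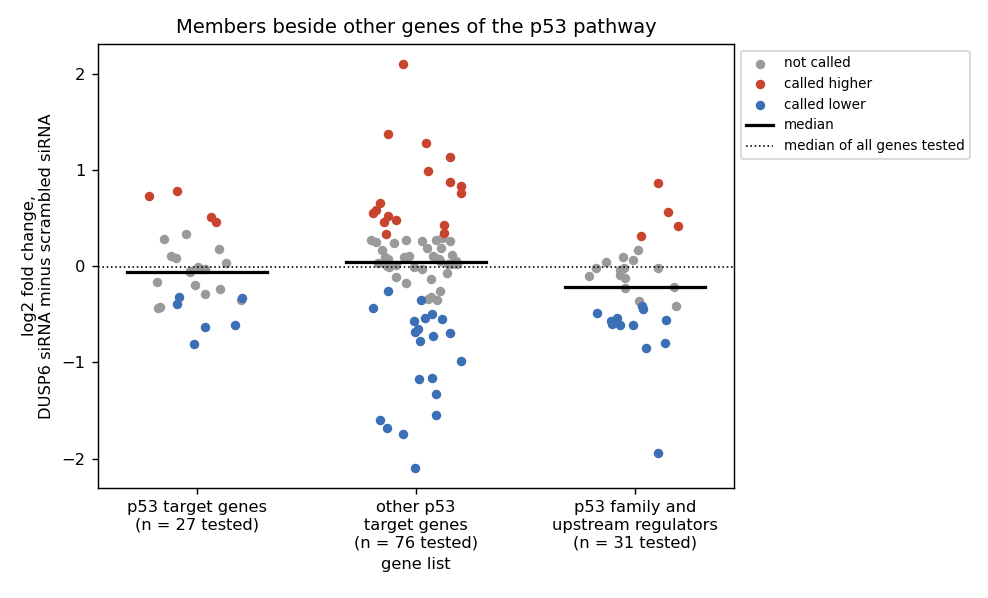
Each point is the log2 ratio (vertical axis, *DUSP6* siRNA minus scrambled siRNA) of a tested gene of the 27 p53 targets described, of 76 other p53 targets or of 31 p53 paralogs and upstream regulators, colored by the limma call. Black bars are the list medians of -0.06, 0.04 and -0.22 and the dotted line is the median of all genes tested, -0.01; each list has genes called on both sides of 0.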

How the data were processed

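The authors used Rsubread with default settings to align the reads of 6 MDA-MB-453 libraries (hg38) and to count them on RefSeq genes, and deposited 1 normalized signal value per gene and library. The processing notes of the submitters name edgeR. Of these deposited values, 100% were a whole number of reads (tolerance 0.001 reads) once divided by the value of 1 read, and the library scaling equalled TMM factors computed with edgeR. Default read assignment ignores strand, so overlapping genes cannot be fully separated. Exon overlap, lengths and start sites were taken from GENCODE 44 on hg38.

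Values were taken as log2(value + 1), which understates changes of low genes. Genes whose mean value reached 1, 12862 in all, were fitted with limma 3.58.1 in R 4.3.3 (lmFit, eBayes with a trend, two-sided) with Benjamini-Hochberg adjustment over all of them and calls at 0.05. On simulated data for this comparison, limma and edgeR 4.0.16 each called 100% of 200 genes changed 2-fold, and 11 and 10 unchanged genes. The simulation gave every gene the same small spread between libraries and changed only well-expressed genes, by exactly 2-fold. It therefore does not measure how often smaller changes, or genes that vary more between libraries, are called.

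All 30 members were named. Those called, and *MDM2*, *CCNG1*, *DDB2*, *GDF15* and *BTG2*, were given per library, and others were added where 1 library set a value. From the other lists, up to 4 called genes with the largest increase and 4 with the largest decrease were named, plus *CDKN1A*, *BAX*, *BBC3*, *FAS*, *ATM*, *CHEK1* and *CHEK2*. Some listed genes are not reported here. The members and lists were chosen with earlier results of these data known. The alternatives were a pseudocount of 0.1, no minimum, a minimum of 10, median-of-ratios scaling, a replicate block, quantile normalization, no trend in eBayes, quasi-likelihood counts in edgeR from the reads, and each library left out in turn.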

Additional observations from a re-analysis of the deposited data

How the results depend on the processing

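The 4 higher and 6 lower calls among the members became 4 to 6 higher and 4 to 7 lower under the alternatives. Of the 10 called members, 7 kept their call and direction in every fit they entered, and *MDM2*, *PPM1D* and *CCNG1* lost theirs in 3, 1 and 6 fits with the direction kept. Over all genes, 1639 instead of 2540 were higher with a minimum mean value of 10. That was 17.1% of the 9562 genes tested there, against 19.7% in the main fit, while 27.6% against 24.7% were lower. Without 1 library, 1535 to 3213 genes were higher (1535 without *DUSP6* siRNA replicate 2 and 1686 without replicate 3). The higher upstream regulators numbered 2 to 4 without 1 library, and 2 without *DUSP6* siRNA replicate 1 or 3. The fold change of *DUSP6* stayed between -2.22 and -1.76 when 1 library was left out. The sign of some uncalled members depended on the setting. Under quantile normalization *PLK2* was at 0.22, *ASCC3* at 0.10, *PERP* at 0.0911 and *ZMAT3* at 0.0037. With edgeR *PLK2* was at 0.0068, *TP53INP1* at -0.0794 and *PERP* at 0.018. Without 1 library the values ran from -0.0493 to 0.39 for *BTG2*, -0.14 to 0.12 for *PLK2*, -0.38 to 0.45 for *TP53INP1*, -0.0889 to 0.41 for *FDXR*, -0.0768 to 0.0439 for *PERP* and -0.12 to 0.0089 for *ZMAT3*. The cause was not tested.

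The values showed no pairing of the libraries by replicate number. The correlations between the deviations of same-numbered libraries were 0.005, 0.087 and -0.076, and those of differently numbered libraries ran from -0.091 to 0.132. With 3 libraries per group, this cannot settle whether the libraries were prepared in pairs. With a replicate block, 5 members were higher and 7 lower, 17 and 21 of the other p53 targets, and the block gave *DUSP6* at -2.05. Depth limits *EDA2R* and *PHLDA3*.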

Other observations

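The ATF4 targets, genes of the integrated stress response, also went in both directions, with 6 of 13 tested higher and 3 lower (46.2% and 23.1%, beside 19.7% and 24.7% of all genes tested). The largest increase among them was that of *SESN2* (1.14), given above with the p53 targets. *SLC7A11*, a cystine transporter, was higher by 0.77, *ASNS*, asparagine synthetase, by 0.71 and *DDIT3* by 0.63 on the log2 scale; exons of *MARS1* cover 27.2% of those of *DDIT3*, and 8.97% of those of *SLC7A11* are shared with its antisense gene, so both are uncertain. *ATF5* differed by -1.28 (19.5% of its exons shared with *NUP62*, uncertain), *PHGDH*, the first enzyme of serine synthesis, by -0.84 and *NUPR1* by -0.82. Of the interferon-stimulated genes, *IFIT1*, *OASL*, *OAS2* and *IFI44L* had the largest log2 fold changes on the log2(value + 1) scale, of 7.19, 6.37, 6.34 and 6.21. The ratios of their means, 149, 115, 167 and 312, stood in another order. The control values of *IFI44L*, 0.0383 to 0.868, were below the added 1.

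*DUSP6* siRNA replicate 2 was the highest of its group for 16 of the 27 tested p53 targets, or 59.3%, beside 46.3% of all genes tested, and the lowest for 10, or 37.0%, beside 33.5%. The median difference of the p53 targets from the mean of the scrambled siRNA libraries was -0.22 on the log2 scale in this library, beside -0.0023 for all genes tested. It was -0.07 and -0.04 in *DUSP6* siRNA replicates 1 and 3, beside -0.0212 and -0.0216. The -0.22 is the value of the middle gene, *CCNG1*, and the next gene above it, *PERP*, was at -0.0442.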
